A study of Mus musculus with 8 samples.

Results

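The Msx homeobox factors Msx1 and Msx2 and the BMP ligand genes Bmp2, Bmp3, Bmp4, Bmp5, Bmp6 and Bmp7 were described in the palatal shelves of mouse embryos with and without Pax9. These genes were found by matching Ensembl identifiers to symbols, and all 8 were among the 19083 genes of the deposited table. RNA was measured in 8 embryos of strain C57BL/6 at embryonic day 13.5, with 1 library for each embryo, and each group is named by its Pax9 genotype. The groups were Pax9-/- (n = 4, called null), Pax9+/- (n = 2, heterozygote) and Pax9+/+ (n = 2, wild type), and heterozygotes and wild types together are called controls (n = 4). The labels give neither the exons removed from Pax9 nor the litters the embryos came from, so a p-value here speaks of the spread among these 8 animals. A protocol on the drug WAY-262611 accompanies the labels, but no embryo used here is labelled as treated. The Pax9 mutation is not labelled as restricted to a cell type.

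BMP ligands are secreted dimers that bind type I and type II serine/threonine kinase receptors, whose signal is carried to the nucleus by Smad1, Smad5 and Smad9 together with Smad4. Msx1 and Msx2 are homeodomain repressors, and their genes respond to BMP signalling in many tissues. In the mouse, Msx1 is needed for palate closure and tooth development, and in the anterior palatal mesenchyme it acts upstream of Bmp4. Pax9 is a paired-box factor of the palatal and dental mesenchyme. In the mouse tooth germ it acts with Msx1 on Bmp4.

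The sequences before Msx1 and Bmp4 are shown because their RNAs are the pair compared over embryos; both were lower in every null embryo than in every control embryo, as was Msx2, whose stretch before the RefSeq start is annotated as exon in GENCODE and is not printed. They are the 250 bases upstream of the RefSeq start in GRCm38.p6, at chr5:37824586-37824835 for Msx1 and chr14:46390670-46390919 for Bmp4, both read 5′ to 3′ on the minus strand. Capitals mark any match to 4 motifs searched on both strands. The motifs were the CCAAT box (CCAAT or ATTGG), the GC box (GGGCGG or CCGCCC), a homeodomain core (TAATT or AATTA) and a GC-rich Smad element (GGCGCC).
Msx1: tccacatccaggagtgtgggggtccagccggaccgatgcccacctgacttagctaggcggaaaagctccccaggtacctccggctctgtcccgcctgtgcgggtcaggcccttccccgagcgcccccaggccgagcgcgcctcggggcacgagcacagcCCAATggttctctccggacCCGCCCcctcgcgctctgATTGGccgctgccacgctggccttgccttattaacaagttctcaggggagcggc
Bmp4: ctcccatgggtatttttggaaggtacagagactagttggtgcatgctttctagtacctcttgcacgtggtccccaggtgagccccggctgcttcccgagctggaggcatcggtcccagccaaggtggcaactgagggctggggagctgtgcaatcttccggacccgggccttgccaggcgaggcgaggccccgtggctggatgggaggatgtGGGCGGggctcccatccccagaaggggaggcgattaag

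The Msx1 stretch held 2 CCAAT boxes and 1 GC box, and the Bmp4 stretch held 1 GC box. Neither held the homeodomain core or the Smad element in these letters. The stretch of Msx2, searched in the same way, held 3 matches to the homeodomain core, 2 of them overlapping, 1 CCAAT box and 1 GC box. Among the 32851 promoters of the RefSeq table, 33.8% held the CCAAT box, 32.7% the GC box, 25% the homeodomain core and 9.59% the Smad element within the same length. The GC content was 68% for Msx1 and 63.2% for Bmp4, against a median of 52.4% over these promoters. Entries were found for 5 of the 8 genes, namely Msx1, Msx2, Bmp4, Bmp5 and Bmp6.

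The libraries held 37069101 to 51210254 reads assigned to genes. Pax9 was at 7.19 to 10.3 FPKM in null and at 26.2 to 35.8 FPKM in controls, so Pax9 separated null from control. Heterozygotes, at 30.1 and 26.2 FPKM, overlapped wild types, at 35.8 and 27.2 FPKM, so Pax9 RNA did not tell those 2 labels apart. FPKM are fragments scaled by gene length and by all assigned fragments of a library. The gene lengths used are not given. For Msx2, Bmp3 and Bmp6, reads and FPKM imply lengths well under their GENCODE exon bases (3279, 7398 and 3900). Comparisons of level between genes therefore depend on the lengths used, while those of 1 gene between embryos do not. Markers of palatal mesenchyme summed to 551 to 597 FPKM in null and 434 to 540 FPKM in controls, with all 6 of the list measured and Osr2 called higher (160 FPKM in null, 96.0 FPKM in controls; limma adjusted p = 0.0286), and those of epithelium to 160 to 212 FPKM in null and 166 to 252 FPKM in controls (8 of 8 measured). In whole shelves, fewer cells of a type and less RNA per cell cannot be told apart. Libraries also differed by their place in the deposited table. The first 4 library columns are null 1, null 2 and both wild types, and the last 4 are null 3, null 4 and both heterozygotes. The leading axis of the variation that is not between the arms, with 46.2% of its variance, had one sign in the first 4 and the other in the last 4. Titles carry the number 56 (null 1, null 3, wild type 1 and heterozygote 1) or 44 (the others). The labels do not say what either stands for.

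Msx1 was the most abundant of the 8 genes in both arms, and its RNA fell in Pax9 null shelves. It was at 45.0, 31.8, 29.2 and 27.9 FPKM in null 1 to 4, against 74.2 and 61.1 FPKM in heterozygotes 1 and 2 and 102 and 75.0 FPKM in wild types 1 and 2. The highest null embryo, null 1, lay below the lowest control, heterozygote 2. The null mean of 33.5 ± 7.85 FPKM was 42.8% of the control mean of 78.2 ± 17.3 FPKM (SD, n = 4 each). Its log2 change was −1.21 ± 0.18 (SE; limma adjusted p = 0.0277). Between 3208 and 14561 reads lay behind these values, so the counting error was at most 1.77% of a value. Msx1 (ENSMUSG00000048450) lies on chromosome 5 from 37820485 to 37824583 on the minus strand in mm10.

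The fall of Msx1 rested on 8 embryos without a wide margin. Its adjusted p was 0.102, 0.0918 and 0.065 without null 2, null 3 or null 4, 0.0884 without heterozygote 1, and 0.0724 and 0.0898 without wild type 1 or wild type 2 (limma). It passed without null 1 (0.0145) and without heterozygote 2 (0.0292). Null and control libraries of the same title number that also lie in the same 4 columns form 4 neighbouring pairs. The ratio of null to control FPKM of Msx1 in them was 0.440 for null 1 over wild type 1, 0.424 for null 2 over wild type 2, 0.394 for null 3 over heterozygote 1 and 0.456 for null 4 over heterozygote 2. The 4 ratios lay close together although Msx1 itself ranged widely within each arm. With the place in the table (first or last 4 columns) and the title number both as blocks, the log2 change was −1.21 ± 0.07 (SE; limma adjusted p = 0.000592). Within controls the place is the same as the genotype, so a block by place also takes up any difference between heterozygotes and wild types.

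**Figure D1:**
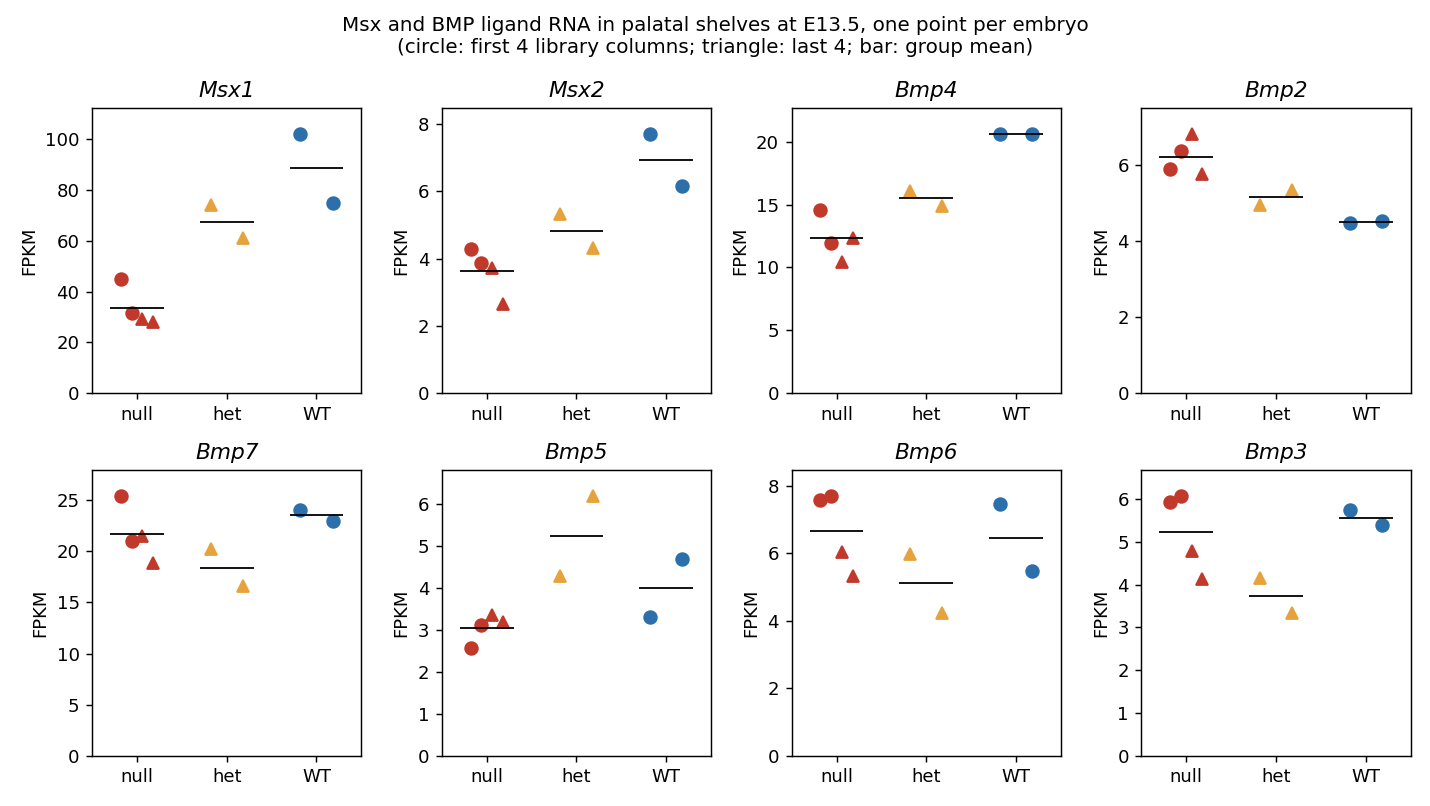
FPKM of the 8 genes (vertical axes, from 0) in null, heterozygote and wild-type embryos, 1 point per embryo; circles are the first 4 library columns, triangles the last 4, and bars the group means. Msx1 lies at 27.9 to 45.0 FPKM in null and at 61.1 to 102 FPKM in controls, while Bmp3, Bmp5, Bmp6 and Bmp7 overlap between null and control.

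Msx2, the second Msx factor, was about an order of magnitude less abundant. It was at 4.28, 3.88, 3.71 and 2.66 FPKM in null 1 to 4, against 5.33 and 4.30 FPKM in the heterozygotes and 7.72 and 6.15 FPKM in the wild types. The groups did not overlap, but null 1 and heterozygote 2 were only hundredths of an FPKM apart. The means were 3.63 ± 0.69 FPKM in null and 5.88 ± 1.44 FPKM in controls (SD, n = 4 each), and the log2 change of −0.62 ± 0.18 (SE) did not pass (limma adjusted p = 0.32). It rested on 144 to 518 reads, a counting error of up to 8.33% of a value. The ratio of null to control FPKM was 0.554 to 0.697 over the 4 neighbouring pairs, and with both blocks Msx2 passed (SE 0.06, limma adjusted p = 0.0055). In FPKM, Msx1 exceeded Msx2 by 9.27 ± 1.44 times in null and by 13.4 ± 0.90 times in controls (SD, n = 4 each). The size of this ratio depends on the gene length used for Msx2, which is not given.

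Bmp4, a close relative of Bmp2 and the ligand linked to Msx1 in the anterior palate, was at 14.6, 11.9, 10.5 and 12.3 FPKM in null 1 to 4. It was at 16.1 and 14.9 FPKM in heterozygotes 1 and 2 and at 20.6 FPKM in each of the wild types. All null embryos lay below all controls, with null 1 just under heterozygote 2. The means were 12.3 ± 1.71 FPKM in null and 18.1 ± 3.02 FPKM in controls (SD, n = 4 each), and the log2 change of −0.53 ± 0.13 (SE) did not pass (limma adjusted p = 0.191). It passed with the place as the only block (SE 0.08, limma adjusted p = 0.0213) and with both blocks (SE 0.08, adjusted p = 0.0242). The pair ratios of null to control FPKM were 0.577 to 0.828. In the annotation 3.96% of the exon bases of Bmp4 overlap Gm15217 on the other strand, which the unstranded kit cannot separate.

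Bmp2 stood apart from Bmp4 in direction. It was at 5.90, 6.38, 6.84 and 5.76 FPKM in null 1 to 4, against 4.96 and 5.36 FPKM in the heterozygotes and 4.49 and 4.53 FPKM in the wild types. Every null embryo was above every control. The means were 6.22 ± 0.49 FPKM in null and 4.84 ± 0.41 FPKM in controls (SD, n = 4 each), and the log2 change of 0.33 ± 0.08 (SE) did not pass (limma adjusted p = 0.158). With the place as the only block the adjusted p was 0.0563, with both blocks it was 0.0468, and with each neighbouring pair as a block, a setting chosen after seeing the data, it was 0.0625. The ratio of Bmp2 to Bmp4 FPKM was 0.405, 0.535, 0.653 and 0.467 in null 1 to 4, against 0.309 and 0.359 in the heterozygotes and 0.218 and 0.219 in the wild types. This ratio did not overlap between null and control, which follows from Bmp2 being higher and Bmp4 lower in every null embryo.

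Bmp5, Bmp6 and Bmp7 form a further subgroup of BMP ligands. Bmp5, which the short ear mutation of the mouse disrupts, was at 2.56, 3.10, 3.35 and 3.19 FPKM in null 1 to 4, against 4.28 and 6.18 FPKM in the heterozygotes and 3.30 and 4.69 FPKM in the wild types. Wild type 1 lay inside the null range, and the control spread was wide. The log2 change of −0.50 ± 0.16 (SE) did not pass (limma adjusted p = 0.399). With both blocks the adjusted p was 0.0425, but it was 0.114 with the place alone and 0.0601 with each pair as a block. Of the exon bases of Bmp5, 46.7% overlap the antisense gene Gm26903, so its value can hold reads of either strand.

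Bmp7 was the most abundant of the 6 Bmp ligands in both arms and its values overlapped between them. It was at 25.4, 21.0, 21.5 and 18.8 FPKM in null 1 to 4, against 20.3 and 16.6 FPKM in the heterozygotes and 24.07 and 22.97 FPKM in the wild types. The log2 change of 0.05 ± 0.12 (SE) did not pass (limma adjusted p = 0.999), nor did it with both blocks (SE 0.05, adjusted p = 0.559). Bmp6, known for iron control in the liver, averaged 6.66 ± 1.16 FPKM in null and 5.79 ± 1.33 FPKM in controls, and Bmp3, which opposes the signal of other BMPs, 5.23 ± 0.93 FPKM in null and 4.66 ± 1.12 FPKM in controls (SD, n = 4 each). Both overlapped between the arms and did not pass, at log2 changes of 0.20 ± 0.16 and 0.16 ± 0.17 (SE; limma adjusted p = 0.942 and 0.967). For Bmp6 5.74% of the GENCODE exon bases overlap Txndc5 on the other strand. The FPKM of Bmp6, like those of Msx2 and Bmp3, rest on a shorter length, and the bases counted are not known. Msx1, Msx2, Bmp2, Bmp3 and Bmp7 shared no exon bases with another annotated gene. In mm10, Msx2 (ENSMUSG00000021469) lies on chromosome 13 from 53466884 to 53473074, Bmp4 (ENSMUSG00000021835) on chromosome 14 from 46383520 to 46390669 and Bmp7 (ENSMUSG00000008999) on chromosome 2 from 172868012 to 172940321, all on the minus strand. On the plus strand, Bmp2 (ENSMUSG00000027358) lies on chromosome 2 from 133552159 to 133562885, Bmp3 (ENSMUSG00000029335) on chromosome 5 from 98854415 to 98884396, Bmp5 (ENSMUSG00000032179) on chromosome 9 from 75775364 to 75900310 and Bmp6 (ENSMUSG00000039004) on chromosome 13 from 38345107 to 38500302.

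Of the 8 genes, all of which passed the filter on low values, 1 was called lower in null (Msx1) and 0 were called higher, against 0.191% and 0.228% of all 13600 tested genes (0.419% in either direction). The values of Msx1, Msx2 and Bmp4 were lower and those of Bmp2 higher in null without overlap, against 3.3% and 1.83% of tested genes (5.13% in all). With both blocks 4 of the 8 were called lower (Msx1, Msx2, Bmp4 and Bmp5) and 1 higher (Bmp2), against 1.8% and 1.26% of tested genes (3.07% in all). With the place as the only block, Msx1, Msx2 and Bmp4 were called lower and none higher, against 0.721% and 0.574% of tested genes (1.29% in all). Msx1, Msx2, Bmp4 and Bmp5 were lower and Bmp2, Bmp3 and Bmp6 higher in null in all 4 neighbouring pairs, against 17.8% and 12.5% of tested genes (30.2% in all), and Bmp7 was higher in 3 of the 4. The median log2 change of the 8 was −0.22, beside −0.01 over all tested genes, with 4 above 0 and 4 below. The 8 genes were chosen with earlier results of the same data known, so the counts are a description.

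**Figure D2:**
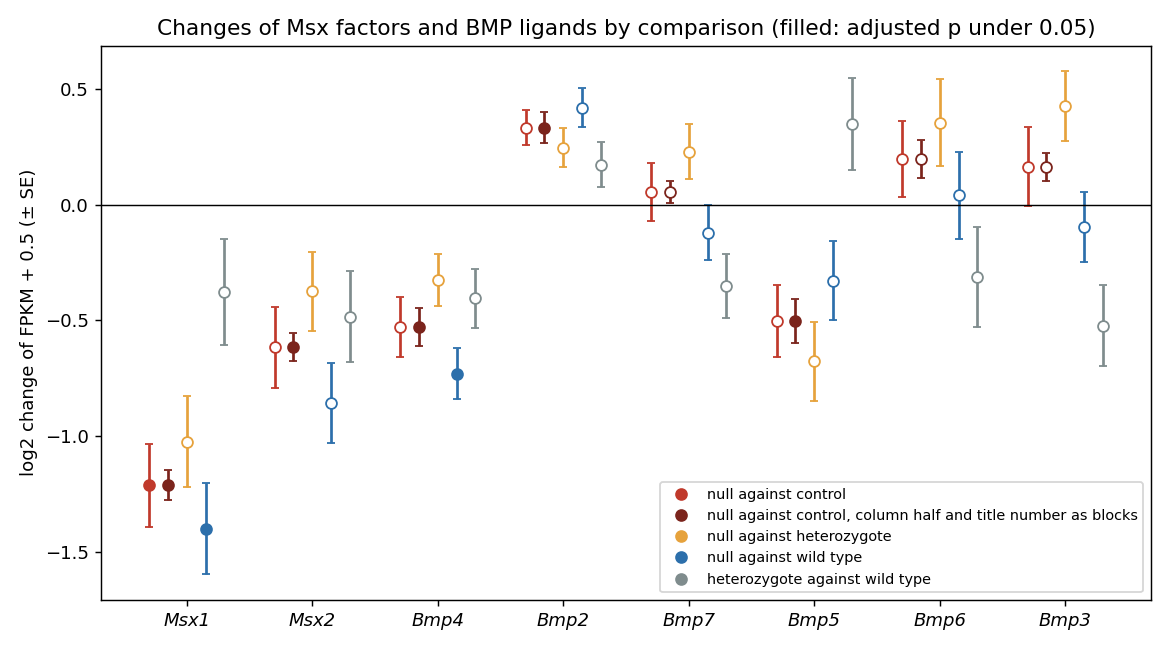
Log2 change of FPKM + 0.5 and its SE for each gene in 5 fits; filled points had an adjusted p under 0.05. Msx1 is at −1.21 in null against control with and without blocks, with an SE of 0.07 with both blocks and 0.18 without.

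Msx1 and Bmp4 were also set against each kind of control alone. Against wild type, both fell, Msx1 by a log2 change of −1.40 ± 0.20 (SE; limma adjusted p = 0.0298) and Bmp4 of −0.73 ± 0.11 (adjusted p = 0.0374). Of all tested genes 0.199% were called lower, 0.184% higher and 0.382% in either direction. Both wild types are in the first 4 columns and null 3 and null 4 are not, so place is mixed into this comparison. Within the first 4 columns alone the log2 change was −1.20 for Msx1 (limma adjusted p = 0.255) and −0.63 for Bmp4 (adjusted p = 0.229), and neither passed. The Bmp4 call also ended with the title number as a block (adjusted p = 0.0737). Msx2 was at −0.86 (adjusted p = 0.116) and Bmp2 at 0.42 (adjusted p = 0.116). Against heterozygote none of the 8 was called by limma, where 0.0294% of tested genes were called lower, 0.0515% higher and 0.0809% in either direction. The log2 change was −1.02 ± 0.20 for Msx1 (SE; adjusted p = 0.207), −0.68 for Bmp5 (adjusted p = 0.418), −0.33 for Bmp4 (adjusted p = 0.644) and −0.37 for Msx2 (adjusted p = 0.715). Both heterozygotes are in the last 4 columns and null 1 and null 2 are not, so place is mixed into this comparison too. Within the last 4 columns alone the log2 change was −1.22 for Msx1 (limma adjusted p = 0.0789) and −0.58 for Bmp5 (adjusted p = 0.702). There Bmp4 was at −0.43 (adjusted p = 0.529) and Msx2 at −0.54 (adjusted p = 0.732), and none of them passed. The null comparisons share the null embryos.

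Between heterozygotes and wild types none of the 8 genes was called by limma and neither was any of the 13600 tested (0%), although 1568 genes had an unadjusted p under 0.05. The log2 change was −0.38 ± 0.23 for Msx1 (SE; adjusted p = 0.395) and −0.40 ± 0.13 for Bmp4 (adjusted p = 0.377). All heterozygotes are in the last 4 library columns and all wild types in the first 4, so genotype and place cannot be told apart in this comparison. The same difference between last and first columns within null embryos alone was −0.40 for Msx1 and −0.21 for Bmp4. For Msx2 it was −0.33 within null and −0.48 within controls, for Bmp3 −0.39 and −0.52, for Bmp6 −0.40 and −0.31, and for Bmp7 −0.20 and −0.35. Bmp5 and Bmp2 ran the other way, at 0.18 and 0.03 within null and 0.35 and 0.17 within controls. Summed marker levels moved with the columns too. Skeletal muscle markers averaged 73.3 FPKM in the last 4 and 194 FPKM in the first 4 libraries, erythroid markers 141 and 243 FPKM, and epithelial markers 174 and 212 FPKM. Palatal mesenchyme markers were higher in the last 4, at 560 and 513 FPKM, and the part of these lists in the values of the 8 genes was not tested.

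Within the ligands, the sum of the 6 had overlapping values in the arms, while the shares of Bmp4 and Bmp7 in it did not overlap. The summed FPKM was 55.2 ± 5.26 in null and 58.9 ± 7.04 in controls (SD, n = 4 each). Bmp4 made up 23.5%, 21.2%, 19.8% and 24.9% of it in null 1 to 4, against 28.8% and 29.5% in the heterozygotes and 31.4% and 32.4% in the wild types. Each null share lay below each control share. The share of Bmp7 lay the other way, at 37.4% to 41.0% in null and 32.7% to 36.6% in controls. Shares of a sum depend on each other, so a lower Bmp4 share by itself raises the others. They also depend on the gene lengths behind the FPKM, as does the sum. The FPKM of Bmp7 itself overlapped between the arms. Bmp2 held 11.3 ± 1.39% in null and 8.36 ± 1.74% in controls (SD, n = 4 each). In order of level, Msx1, Bmp7 and Bmp4 came first in both arms. In null their ranges were separate from each other and from the rest. In controls the ranges of Bmp7 and Bmp4 overlapped. Of the 5 lesser genes, Msx2 came first in controls, at 5.88 FPKM, and second to last in null, at 3.63 FPKM, and neighbours in that order overlapped in both arms. Msx2, Bmp3 and Bmp6 are the genes with short implied lengths, so this order holds for the deposited FPKM only.

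**Figure D3:**
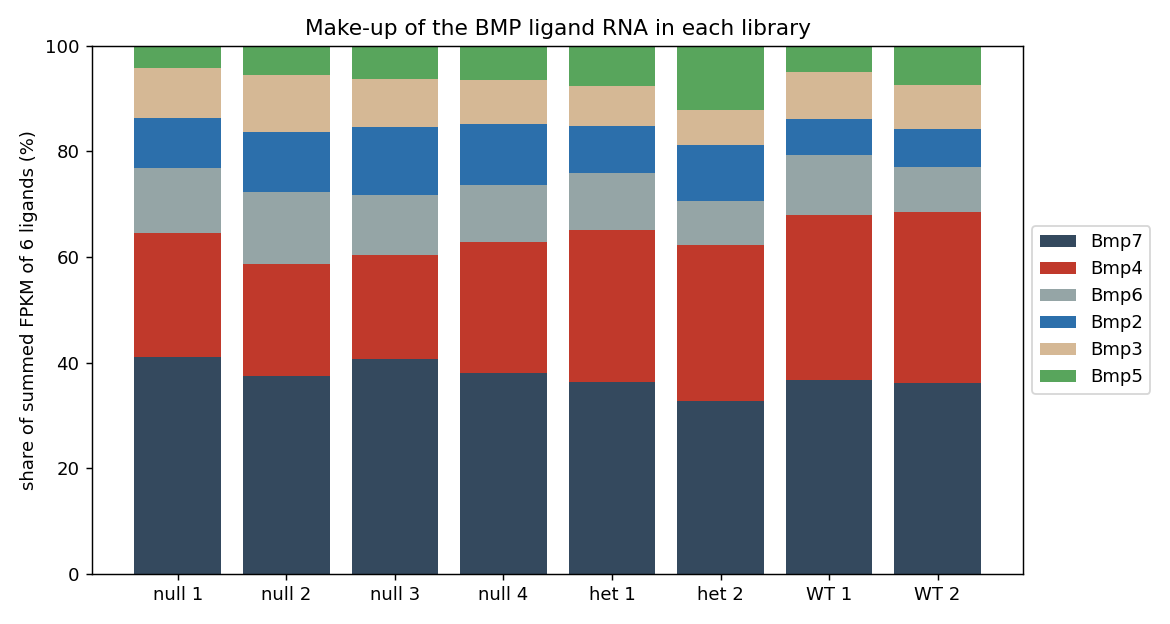
Share of each of the 6 ligands in their summed FPKM (vertical axis, percent) for each of the 8 libraries. The Bmp4 segment is 19.8% to 24.9% in null and 28.8% to 32.4% in controls.

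Msx1 and Bmp4 were compared over embryos to see whether they vary together within null and within control. Since Msx1 falls into separate clusters in null and control, the means of null and of control libraries were subtracted first. Over the 8 embryos Pearson's r of their deviations was 0.79 (exact permutation within null and within control, two-sided p = 0.0417) and Spearman's rho 0.83 (exact permutation p = 0.0278). Adjusted over the 28 pairs of the 8 genes, these p-values were 0.0729 and 0.0778, and no pair passed for either measure. With the means of all 3 genotypes subtracted, r was 0.73 (exact permutation p = 0.125) and rho 0.33 (exact permutation p = 0.562). When 1 embryo was left out, the exact permutation p of r was under 0.05 in 3 of 8 cases and ranged from 0.0139 to 0.194. Without the 2 embryos farthest from the Msx1 median, wild type 1 and null 4, r was 0.84 (exact permutation p = 0.0833). With the mean of each arm within the first 4 and within the last 4 columns subtracted, r was 0.56 (exact permutation p = 0.5, over 16 arrangements, which cannot reach 0.05), so the relation was not shown within these sets of columns.

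Other pairs had an r of similar size. Msx1 had an r of 0.88 with Bmp7, 0.86 with Msx2, 0.85 with Bmp6 and 0.78 with Bmp3, and −0.90 with Bmp5 (exact permutation p = 0.0104, 0.0226, 0.0243, 0.0399 and 0.00868 before adjustment, and 0.0619 to 0.0729 after it). With Bmp2 it was −0.57 (exact permutation p = 0.191). These values of r were not taken within the sets of columns, so they still hold any difference between first and last columns. Differences between them were not tested. The ratio of Msx1 to Bmp4 FPKM was 3.08, 2.67, 2.79 and 2.26 in null 1 to 4, against 4.62 and 4.10 in the heterozygotes and 4.96 and 3.63 in the wild types, without overlap.

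**Figure D4:**
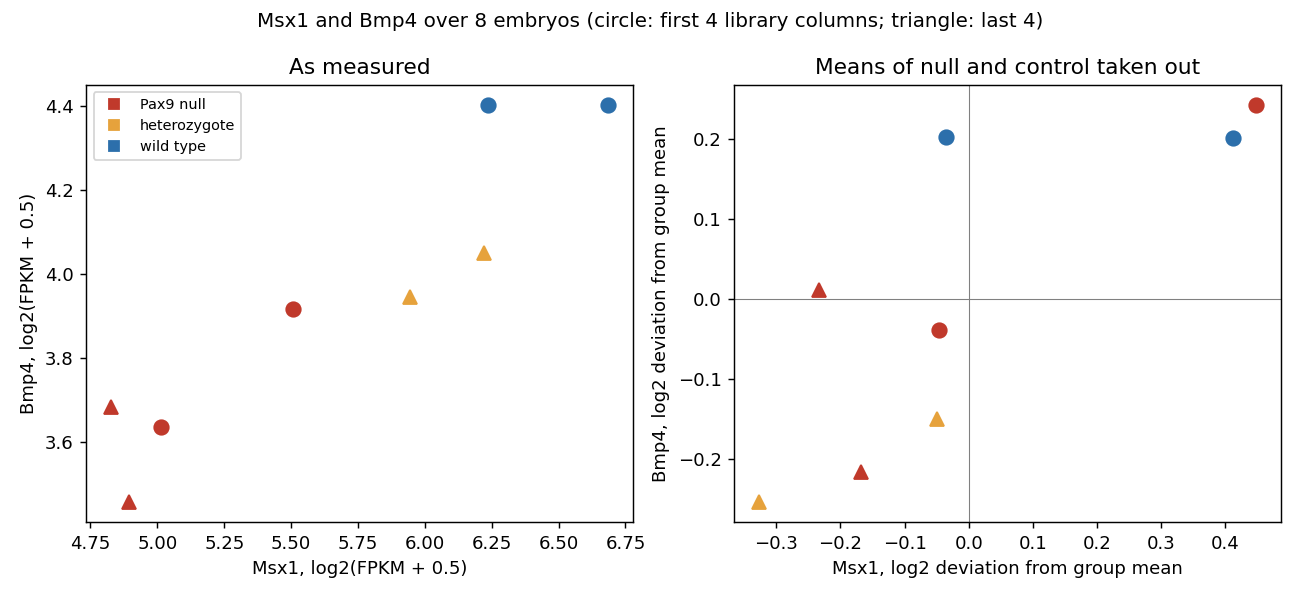
Msx1 (horizontal) against Bmp4 (vertical) in 8 embryos, as log2(FPKM + 0.5) on the left and as log2 deviations from the mean of null or control on the right; circles are the first 4 library columns and triangles the last 4. On the right r is 0.79, and all 4 triangles lie left of 0 on the horizontal axis.

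The 5 tested genes whose profile over the 8 libraries lay closest to that of Msx1 were Adcy8, Hs3st6, Cntn6, Matn4 and Grik3. The mean absolute difference between their centred log2 profiles and that of Msx1 was 0.13 to 0.21. Adcy8, a calcium-stimulated adenylyl cyclase, averaged 1.32 ± 0.32 FPKM in null and 4.65 ± 1.46 FPKM in controls, and Hs3st6, a heparan sulfate sulfotransferase, 0.94 ± 0.17 FPKM in null and 2.92 ± 1.05 FPKM in controls (SD, n = 4 each). Likeness to Msx1 includes its difference between null and control, so a lower level of these genes in null follows from the choice and is given as a description. In likeness to Msx1, Msx2 ranked 21 and Bmp4 30. The distance between Msx1 and Bmp4 was 0.34 either way, but from the side of Bmp4 it put Msx1 at rank 10962 of the 13600 genes. The measure takes in the size of a change as well as its direction, and Msx1 changed more than Bmp4. Closest to Bmp4 were Sh2d5, Elfn1, Sp5, Notum and C1ql1, at mean absolute differences of 0.08 to 0.11 log2 units, and Msx2 ranked 87. In null and in controls, Sh2d5 averaged 0.72 ± 0.13 and 1.13 ± 0.20 FPKM, and Elfn1 0.98 ± 0.17 and 1.44 ± 0.33 FPKM (SD, n = 4 each). Sp5, a Wnt-responsive zinc-finger factor, averaged 0.74 ± 0.13 FPKM in null and 1.48 ± 0.40 FPKM in controls. Notum, a Wnt deacylase, averaged 0.73 ± 0.13 FPKM in null and 1.13 ± 0.19 FPKM in controls. C1ql1 averaged 1.99 ± 0.25 FPKM in null and 2.70 ± 0.52 FPKM in controls. The null means of Sh2d5, Elfn1, Sp5 and Notum lay under 1 FPKM, the level of the filter on low values. Likeness to Bmp4 likewise includes its difference between null and control, so these lower levels follow from the choice. No function was read from likeness.

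Other BMP pathway genes were read against the same shares of all tested genes (0.228% higher and 0.191% lower, or 1.26% and 1.8% with both blocks), at which few calls or none come from lists of this size. Of 5 tested other ligands, 10 receptors and co-receptors, 9 transducers, 15 antagonists with chordin-cleaving proteases and 16 responsive genes, 0 were higher and 0 lower (limma), at median log2 changes of 0.04, 0.06, −0.01, 0.00459 and −0.000551. Over all tested genes the median was −0.01. With both blocks the calls were Gdf7 higher among the ligands, and Dlx5 and Id1 higher and Hand2 and Id4 lower among responsive genes. Gdf7, a roof-plate ligand of the spinal cord, averaged 3.57 ± 1.32 FPKM in null and 1.72 ± 0.43 FPKM in controls (SD, n = 4 each; adjusted p = 0.0168 with blocks and 0.237 without). Within the list of other ligands, Gdf10 and Gdf11 were the most abundant, at 15.5 against 21.1 FPKM and 12.7 against 12.3 FPKM in null against control.

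Among the 10 receptors and 9 transducers there were 0 calls with or without blocks, where 3.07% and 0.419% of all tested genes were called, so the counts set them apart from no other genes. The type I receptor Bmpr1a was at 46.1 ± 4.91 FPKM in null and 45.5 ± 4.57 FPKM in controls, a log2 change of 0.02 ± 0.09 (SE). The type II receptor Bmpr2 was at 24.8 FPKM in null and 23.8 FPKM in controls. Receptor changes lay between −0.09 and 0.18 and those of transducers between −0.15 and 0.08 on the log2 scale. Smad5, the most abundant transducer, was at 49.98 FPKM in null and 47.1 FPKM in controls, and Smad4, the common partner, at 39.8 FPKM in null and 39.2 FPKM in controls. Of the antagonist list, Fstl1 averaged 206 FPKM in null and 205 FPKM in controls and the chordin-cleaving protease Bmp1, not a ligand despite its name, 93.8 FPKM in null and 87.6 FPKM in controls. Grem1, a secreted BMP blocker, was at 1.40 ± 0.20 FPKM in null and 2.16 ± 0.21 FPKM in controls and did not pass (limma, adjusted p = 0.119, and 0.054 with both blocks).

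The called responsive genes went both ways with blocks. The dominant negative helix-loop-helix genes Id2 and Id3 were the most abundant, at 103 against 93.8 FPKM and 93.3 against 95.3 FPKM in null against control. Id1 was at 65.8 FPKM in null and 57.9 FPKM in controls (adjusted p = 0.0497 with blocks and 0.795 without), and Id4 at 7.71 FPKM in null and 11.4 FPKM in controls (0.0325 and 0.171). Hand2, a helix-loop-helix factor of the lower jaw, averaged 0.83 ± 0.70 FPKM in null and 4.07 ± 1.04 FPKM in controls (0.0167 and 0.0769). Dlx5, a homeobox factor of the jaw, averaged 18.7 ± 4.05 FPKM in null and 10.4 ± 2.13 FPKM in controls (SD, n = 4 each; 0.00329 and 0.135).

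**Figure D5:**
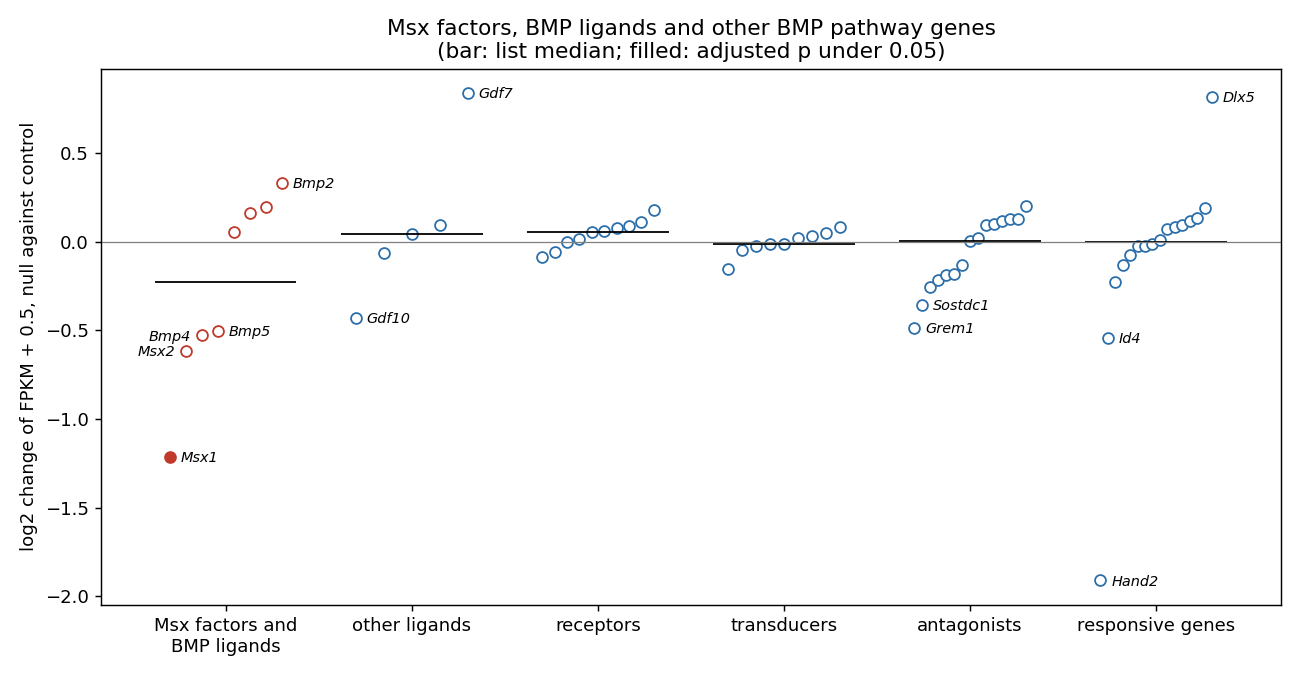
Log2 change in null against control (vertical axis) for the 8 genes and for 5 lists of other BMP pathway genes, 1 point per tested gene; bars are list medians and filled points had an adjusted p under 0.05. Msx1 at −1.21 is the filled point, and receptors lie between −0.09 and 0.18.

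Since Msx1 and Bmp4 are known from the anterior palate and tooth germ, markers of those places were set beside them. Of the anterior markers, Shox2 averaged 51.1 FPKM in null and 43.6 FPKM in controls, Fgf10 6.59 FPKM in null and 7.60 FPKM in controls, and Alx1 14.8 FPKM in null and 17.0 FPKM in controls. None of these passed (limma adjusted p = 0.768, 0.904 and 0.804). The posterior markers Meox2, Tbx22, Barx1 and Mn1 summed to 368 to 404 FPKM in null and 301 to 350 FPKM in controls, with 0 of 4 called. With both blocks Barx1 was called higher (328 FPKM in null, 269 FPKM in controls; limma adjusted p = 0.00527). Tooth germ markers summed to 91.9 to 99.2 FPKM in null and 83.1 to 113 FPKM in controls, with 0 of 4 tested called and Dspp near 0 in every library. The 2 measured lower jaw markers, Hand2 and Gsc, summed to 14.6 to 17.7 FPKM in null and 19.4 to 24.1 FPKM in controls. Cartilage markers summed to 94.2 to 102 FPKM in null and 122 to 142 FPKM in controls, with Col2a1 called lower and Matn1 near 0, and skeletal muscle markers to 66.1 to 262 FPKM in null and 58.3 to 179 FPKM in controls. With both blocks, among the markers reported here, Pdgfra and Krt15 were also called higher in null, and Hand2, Gsc, Krt5, Krt14 and Col9a1 lower (limma). The part of these lists in the values of Msx1 and Bmp4 was not tested.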

How the data were processed

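Poly(A)-selected RNA of 8 palatal shelf dissections was sequenced with an Illumina TruSeq v2 kit, per the labels. The authors deposited FPKM values. Per the submitters' processing notes, Novoalign 2.08.03 and DESeq2 were used, with genome build mm10. No source used here gives the counting program or annotation. Values of all 19083 genes were whole reads within 0.03 of a read, which gave the depth, 37069101 to 51210254 reads; errors from reads cover counting only. Symbols and exons came from GENCODE M21 on GRCm38, where 18752 identifiers matched. No column (0) was of another sample.

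The 13600 genes that reached 1 FPKM in 2 libraries were fitted on the log2(FPKM + 0.5) scale (limma 3.58.1, R 4.3.3) with a mean-variance trend, two-sided tests and Benjamini-Hochberg adjustment over all of them; calls are at an adjusted p under 0.05. Such changes understate those of low genes. Null was set against control, and a fit with 3 groups gave the other comparisons. Alternatives were other pseudocounts, filters, scaling, variance models, GC removal, blocks, subsets and leaving out each library. Exact permutations ran through all 576 arrangements within null and within control (Python 3.11.15, SciPy 1.17.1). The genes, lists and tests were chosen with earlier results of these data known. The text names the 8 genes, Pax9, the called genes and the 2 most abundant of each pathway list, and the 5 genes closest to Msx1 and to Bmp4; Grem1 was chosen after its values were seen. Some markers, and the sums that hold them, are not reported here.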

Additional observations from a re-analysis of the deposited data

How the results depend on the processing

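The count of 57 genes changed in null against control was 116 after removal of a GC trend, 176 with the place in the table as a block, 417 with place and title number as blocks and 307 with each neighbouring pair as a block, a setting chosen after seeing the data. It was 35 under the stricter filter of a mean of 5 FPKM, which left Msx2, Bmp3 and Bmp5 untested, 4 and 0 within title numbers 56 and 44 alone (limma; within 44, 425 genes had an unadjusted p under 0.05), and 2 and 3 within the first and last 4 columns alone. Leaving out 1 library gave 16 (without wild type 1) to 52 (without null 4). The other 7 alternatives stayed within 1.5 times of 57. The Msx1 change was below 0 under all 24 alternatives. It did not pass within title numbers 44 (−1.17) and 56 (−1.25) or within the first (−1.20) and last 4 columns (−1.22), and ranged from −1.36 to −1.08 when 1 library was left out. The cause of these differences was not tested, but the subsets hold only 4 libraries. Bmp7 was at −0.023 within the first 4 columns alone and from −0.051 to 0.124 when 1 library was left out. The r of Msx1 with Bmp4 had a permutation p over the threshold with median-ratio scaling (0.79), with 3 genotype means subtracted (0.73), within sets of columns (0.56) and without the 2 farthest embryos (0.84), and leaving out 1 embryo gave 0.68 to 0.91, with a p under 0.05 in 3 of 8 cases. The title number names no stated pairing, so blocks by it are a hint from the data, not the design. The fewest reads behind a value were 144, for Msx2.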
